A study of Mus musculus with 11 samples.

Results

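Genes for 5 secreted or surface-bound proteins around plasminogen activation were followed in mouse bone marrow stroma: the activators Plat and Plau, the urokinase receptor Plaur, and the serpins Serpine2 and Serpinf1. They are 5 of the 24718 genes in the deposited count table, taken by symbol, and all 5 were among the 17838 genes that passed the low-count filter and were tested. The list was selected on earlier results of these same libraries, which included the lower count of Serpine2 after repeated doxorubicin. The levels and differences of the 5 genes are therefore given as descriptions with standard errors and without a test of their own.

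The cells were marrow mesenchymal stem and progenitor cells of female mice of the genotype Lepr-Cre;LSL-tdTomato+/-, sorted on tdTomato. In these mice Cre made under control of the leptin receptor gene switches on the red reporter, so sorted cells are those with a history of leptin receptor expression, including descendants such as osteoblasts. Doxorubicin, an anthracycline that blocks topoisomerase II and damages DNA, was given intravenously to young adult mice as 1 injection of 10 mg/kg (DOX1X, n = 3) or as 4 injections of 5 mg/kg a week apart (DOX4X, n = 4). Controls received 4 intravenous injections of phosphate-buffered saline (PBS, n = 4), so DOX1X differed from PBS in the number of injections as well as in the drug. All groups carried the reporter genotype, and all cells were collected 8 weeks after treatment. The labels number the animals as separate biological replicates.

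PBS libraries held 29540422 to 42784036 counts each, those of DOX1X 33496356 to 42002065 and those of DOX4X 31129352 to 36888310. Levels are given as CPM, the count of a gene relative to the library total after TMM scaling, which corrects for depth and composition. The 10 marrow stromal markers, among them Lepr, Cxcl12 and Adipoq, were present in all libraries and summed to 67410 to 77400 CPM in PBS, 61140 to 77060 in DOX1X and 61540 to 72370 in DOX4X. Column names placed all PBS libraries and DOX1X 1 and 2 on one flow cell, and DOX1X 3 with all DOX4X libraries on another. DOX4X and PBS can thus be told apart from the flow cell only through the DOX1X libraries. PBS replicate 4 has a title that begins with the doxorubicin abbreviation, but its treatment label and library name are those of a control, and it was kept as PBS, with the differences of the members from PBS also given without it. The RNA came from a pool of sorted cells, so fewer cells of a type and less RNA per cell cannot be told apart.

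Plasminogen is a circulating zymogen that is cut to plasmin, a broad protease that dissolves fibrin, degrades matrix and releases or activates growth factors. Tissue-type activator (Plat) acts mainly on fibrin, whereas urokinase (Plau) acts at the cell surface when bound to its lipid-anchored receptor Plaur. Serpine2, or protease nexin-1, is a cell- and matrix-bound inhibitor of thrombin, urokinase, tissue-type activator and plasmin. Serpinf1, or pigment epithelium-derived factor, has the serpin fold but does not inhibit proteases, and is known in bone because its loss causes a recessive brittle bone disease with poor mineralization.

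Promoter sequences are shown for the members that the RefSeq promoter table holds, so that Serpine2, lower after 4 doses, and Plaur, higher after 4 doses, can be read side by side with Serpinf1, whose groups overlapped. Of the 5 genes, 3 matched: Plaur, Serpine2 and Serpinf1. Each window covers 250 bases before and 50 bases from the annotated start on GRCm38.p6, written 5′ to 3′ on the strand of the gene, with matches to the searched motifs in capitals. The motifs were the GC box with the letters GGGCGG, the AP-1 motif with the letters TGANTCA, the TATA box taken as TATAAA, the box of the nuclear factor Y type spelled CCAAT, and the nuclear receptor half-site AGGTCA, searched on both strands.
Serpine2: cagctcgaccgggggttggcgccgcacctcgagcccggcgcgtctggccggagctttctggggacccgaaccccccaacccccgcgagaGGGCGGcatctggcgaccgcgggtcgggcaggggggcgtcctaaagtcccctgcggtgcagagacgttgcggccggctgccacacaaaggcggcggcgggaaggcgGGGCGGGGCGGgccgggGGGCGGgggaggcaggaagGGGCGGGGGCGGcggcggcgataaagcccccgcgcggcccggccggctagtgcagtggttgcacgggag
Plaur: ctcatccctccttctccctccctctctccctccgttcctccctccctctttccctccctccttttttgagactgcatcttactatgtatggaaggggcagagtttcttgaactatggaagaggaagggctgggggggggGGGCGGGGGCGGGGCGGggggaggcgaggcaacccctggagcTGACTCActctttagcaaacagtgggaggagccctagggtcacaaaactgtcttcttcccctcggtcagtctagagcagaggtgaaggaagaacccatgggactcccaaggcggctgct
Serpinf1: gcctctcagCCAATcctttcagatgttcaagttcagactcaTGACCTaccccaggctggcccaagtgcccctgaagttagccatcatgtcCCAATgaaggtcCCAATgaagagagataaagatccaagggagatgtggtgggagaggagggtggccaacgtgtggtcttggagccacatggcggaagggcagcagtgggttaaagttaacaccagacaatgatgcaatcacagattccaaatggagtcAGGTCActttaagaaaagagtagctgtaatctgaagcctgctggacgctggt

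The Serpine2 window (chr1:79858616-79858915, minus strand) is 77.7% G and C and holds 6 GC boxes, at -161, -55, -50, -38, -19 and -13 from the start, of which those at -55 and -50 share bases. The Plaur window (chr7:24462233-24462532, plus strand) is 59.3% G and C, with 3 GC boxes that run together from -111 to -100 and 1 AP-1 match at -69. The Serpinf1 window (chr11:75422574-75422873, minus strand) is 50.7% G and C and holds no GC box, but 3 CCAAT boxes and 2 half-sites. Across all 32851 promoter windows the median was 52.7% G and C, and 35.7% held a GC box, 7.81% an AP-1 match, 13.6% a TATA box, 37.4% a CCAAT box and 16.3% a half-site. These matches describe the letters of the windows and are not evidence of binding. No link between the motifs and the differences between groups was tested.

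The 5 genes covered a wide range of expression in these cells. Per kilobase of exon, the mean PBS level was 930.6 ± 118 CPM for Serpine2 and 102.75 ± 30.6 for Serpinf1 (SD, n = 4), which ranked 28 and 351 among the 17352 genes with a length. The activators and the receptor were far lower, at 3.49 ± 1.39 CPM per kilobase for Plat, 1.76 ± 0.431 for Plaur and 0.0751 ± 0.0598 for Plau (SD, n = 4), ranking 8283, 10351 and 16757. Sorted control stroma therefore carried an inhibitor transcript among its most abundant RNAs and barely any urokinase. Plg, the gene of plasminogen, the substrate of both activators, reached at most 0.136 CPM in any library and did not pass the filter.

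**Figure D1:**
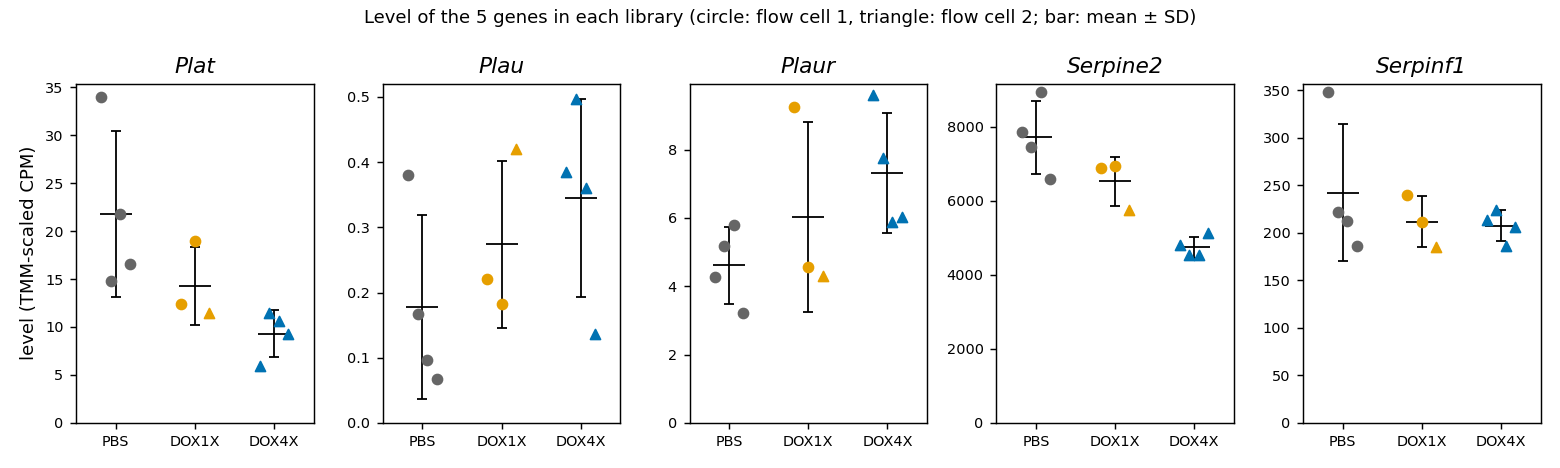
Level of each of the 5 genes in every library (vertical axes, TMM-scaled CPM, each from 0), by treatment group, with the mean ± SD and with flow cell 1 as circles and flow cell 2 as triangles. The DOX4X libraries of Serpine2 (4528 to 5119) all lie below the PBS libraries (6583 to 8943), Plat shows the same separation at a far lower level, and Plau and Serpinf1 overlap between all groups.

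Plat, the tissue-type activator, was highest in controls. Its level was 33.97, 14.75, 21.75 and 16.54 CPM in PBS 1 to 4, 12.43, 18.92 and 11.49 CPM in DOX1X 1 to 3, and 5.92, 11.50, 10.59 and 9.24 CPM in DOX4X 1 to 4. PBS 1 stood above every other library, all DOX4X libraries lay below all PBS libraries, and DOX1X overlapped both. Group means were 21.8 ± 8.67 CPM in PBS, 14.3 ± 4.05 in DOX1X and 9.31 ± 2.44 in DOX4X (SD, n = 4, 3 and 4). The log2 fold change from PBS was -1.23 (SE 0.29) after 4 doses, a level 42.7% of PBS, and -0.61 (SE 0.31) after 1 dose, and that of DOX4X against DOX1X was -0.62 (SE 0.30). PBS 1 carries part of the difference after 4 doses, which was -0.93 without it.

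Plau, the urokinase gene, was close to the limit of detection. Its level was 0.381, 0.167, 0.0971 and 0.0667 CPM in PBS 1 to 4, from 15, 5, 3 and 2 reads. DOX1X libraries had 0.220, 0.182 and 0.421 CPM and DOX4X libraries 0.385, 0.497, 0.361 and 0.136 CPM, which is 5 to 17 reads per DOX4X library. The groups overlapped in every comparison, with a log2 fold change of 0.90 (SE 0.59) for DOX4X against PBS and 0.58 (SE 0.64) for DOX1X against PBS. Without PBS 1, which had the most Plau reads of the controls, these were 1.61 and 1.29. One read is worth 0.0245 to 0.0334 CPM here, and the filter level of 0.299 CPM was reached in 3 DOX4X, 1 DOX1X and 1 PBS library, so Plau entered the test mainly through the group in which it was highest. A difference in Plau was not measurable with any precision at this depth.

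Plaur, the urokinase receptor, ran opposite to Plat. Its level was 4.26, 5.17, 5.79 and 3.20 CPM in PBS 1 to 4, 9.25, 4.55 and 4.28 CPM in DOX1X 1 to 3, and 9.61, 7.75, 5.87 and 6.02 CPM in DOX4X 1 to 4. All DOX4X libraries lay above all PBS libraries, although DOX4X 3 exceeded PBS 3 only narrowly, from 195 and 179 reads. That gap is within sampling error. DOX1X 1 lay among the high DOX4X libraries while DOX1X 2 and 3 lay within the PBS range. Means were 4.61 ± 1.13 CPM in PBS, 6.03 ± 2.79 in DOX1X and 7.31 ± 1.75 in DOX4X (SD, n = 4, 3 and 4). The log2 fold change of DOX4X against PBS was 0.67 (SE 0.29), or 1.59-fold, and that of DOX1X against PBS was 0.39 (SE 0.31). DOX1X 1 carries the latter, which was -0.06 without it.

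Serpine2, the inhibitor, had the most precise values of the 5 genes, from 150513 to 309609 reads per library. Its level was 7855, 7467, 8943 and 6583 CPM in PBS 1 to 4, 6888, 6928 and 5760 CPM in DOX1X 1 to 3, and 4803, 4535, 4528 and 5119 CPM in DOX4X 1 to 4. All DOX4X libraries lay below all DOX1X and all PBS libraries, whereas DOX1X and PBS overlapped only through PBS 4. Means were 7712 ± 978 CPM in PBS, 6525 ± 663 in DOX1X and 4747 ± 279.7 in DOX4X (SD, n = 4, 3 and 4), and the spread within a group narrowed from 12.7% of the mean in PBS to 5.89% in DOX4X. The gene took 0.668 to 0.853% of all counts in PBS libraries, 0.594 to 0.682% in DOX1X and 0.472 to 0.509% in DOX4X, and ranked 4, 6 and 10 by mean CPM among the 17838 tested genes in the 3 groups. The log2 fold change of DOX4X was -0.70 (SE 0.11) from PBS, a level 61.6% of the control, and -0.46 (SE 0.12) from DOX1X, while that of DOX1X from PBS was -0.24 (SE 0.12).

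Serpinf1 was abundant and differed little between groups. PBS libraries had 348, 222, 213 and 186 CPM, DOX1X libraries 239.5, 211 and 185 CPM, and DOX4X libraries 214, 224, 186 and 206 CPM. PBS 1 stood apart from the other libraries of all groups, which shared one range. The log2 fold change was -0.22 (SE 0.17) for DOX4X against PBS, -0.19 (SE 0.18) for DOX1X against PBS and -0.03 (SE 0.18) for DOX4X against DOX1X. The first of these was -0.0017 without PBS 1.

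Read against all genes tested, 1 of the 5 members was called in DOX4X against PBS (Serpine2, edgeR's quasi-likelihood test with Benjamini-Hochberg adjustment at 0.05), where 26 of 17838 genes, or 0.146%, were called, all of them lower. In the same comparison 2 members lay wholly below PBS (Plat and Serpine2), against 4.68% of all genes, and 1 wholly above (Plaur), against 3.17%. No member was called in DOX1X against PBS or in DOX4X against DOX1X, in each of which 0.00561% of genes, 1 gene, passed. In DOX1X against PBS no member was free of overlap, where 3.82% of all genes lay wholly below and 3.18% wholly above. In DOX4X against DOX1X, Serpine2 lay wholly below and no member wholly above, against 2.79% and 3.19% of all genes. The members were chosen with these comparisons known, so nothing is read from their counts, and the 3 comparisons share libraries with each other.

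**Figure D2:**
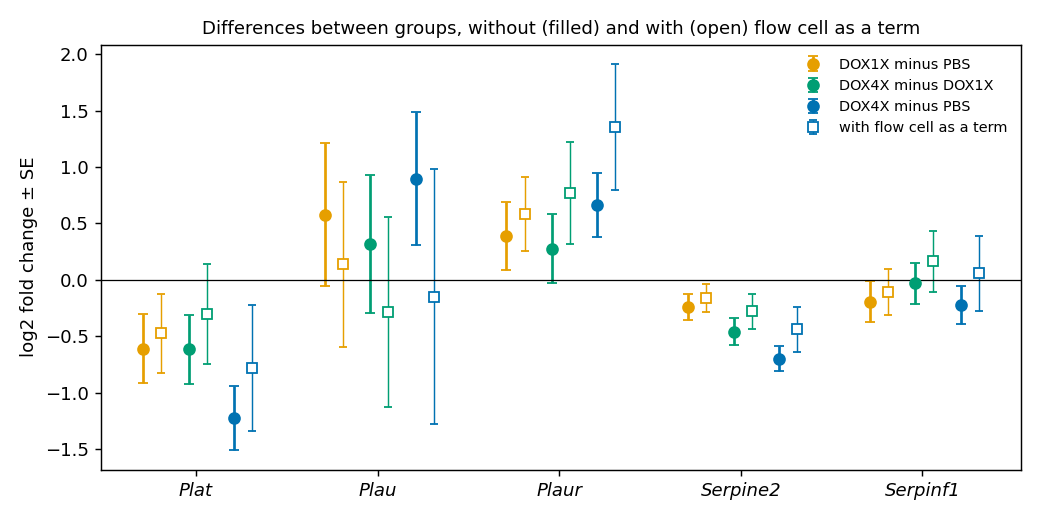
Log2 fold change ± SE of the 5 genes in each of the 3 comparisons, from the fit without flow cell (filled) and with flow cell as a term (open). For DOX4X against PBS, Serpine2 moves from -0.70 to -0.44, Plat from -1.23 to -0.78 and Plaur from 0.67 to 1.36 when flow cell enters, each with a wider error.

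Flow cell moved with the comparison of 4 doses and controls. With flow cell as a term, the log2 fold change of DOX4X from PBS was -0.44 (SE 0.20) for Serpine2, -0.78 (SE 0.56) for Plat and 1.36 (SE 0.56) for Plaur, and the call of Serpine2 was lost. Within the second flow cell, the single DOX1X library had 5760 CPM of Serpine2 and lay above all 4 DOX4X libraries, with a log2 fold change of -0.28 (SE 0.14) against it. On the first flow cell, DOX1X 1 and 2 (6888 and 6928 CPM) lay inside the PBS range for Serpine2 only through PBS 4 (6583 CPM). PBS 4 is the library whose title conflicts with its label, and both DOX1X libraries lay below PBS 1 to 3. In DOX4X against DOX1X, Plat had a value of -0.30 and Plaur of 0.78 within the second flow cell.

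The Serpine2 call depended on the libraries and the model more than its size did. Across 21 alternative settings the log2 fold change of DOX4X from PBS ran from -0.79 to -0.44, lower in all 21, and 8 of them passed the threshold. When 1 library at a time was left out, the value stayed between -0.77 and -0.62, but the call held only without PBS 4 or DOX1X 3 and was lost without any one of the other 9 libraries (PBS 1, 2 or 3, DOX1X 1 or 2, DOX4X 1, 2, 3 or 4). Without PBS 4, the library with the conflicting title, the log2 fold change was -0.77, and those of the other members in the same comparison were -1.34 for Plat, 0.64 for Plau, 0.53 for Plaur and -0.33 for Serpinf1. For DOX1X against PBS they were -0.31 for Serpine2, -0.72 for Plat, 0.32 for Plau, 0.25 for Plaur and -0.30 for Serpinf1. With a blood-cell marker score as covariate it was -0.79 (SE 0.13) and not called.

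**Figure D3:**
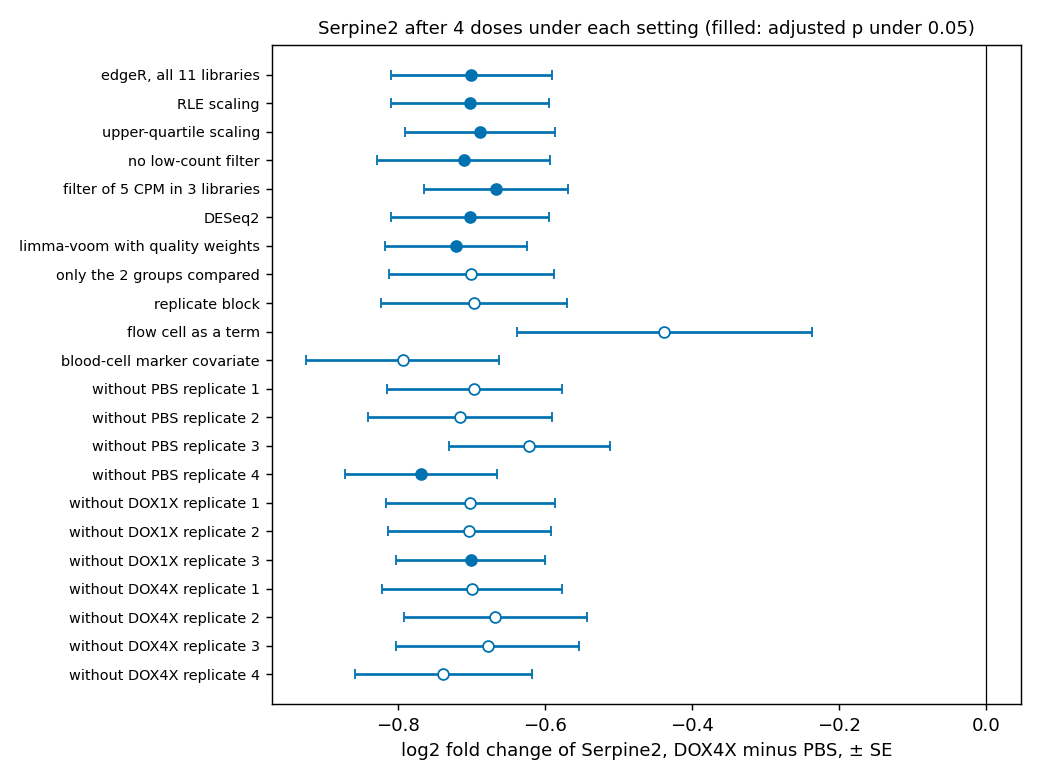
Log2 fold change ± SE of Serpine2, DOX4X minus PBS (horizontal axis), under the reported fit and 21 alternatives, with filled points where the adjusted p is under 0.05. All points lie below 0, between -0.79 and -0.44, and the one nearest 0 is the fit with flow cell as a term.

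Markers of other cells that the sort could hold were summed in each library. Monocyte and macrophage markers, 13 genes that include Csf1r and Lyz2, summed to 77.6 to 121 CPM in PBS, 94.9 to 195 in DOX1X and 118.5 to 202 in DOX4X. Endothelial markers, 12 genes that include Cdh5 and Pecam1, summed to 175 to 607, 242 to 404 and 560 to 973 CPM, and osteoblast markers, 9 genes that include Bglap and Sp7, to 11580 to 22710, 12490 to 18710 and 9682 to 13420 CPM. No marker of these lists was at 0 in all libraries. In DOX4X against PBS, 8 of 12 tested monocyte and macrophage markers were higher (median log2 fold change 0.35), 12 of 12 endothelial (0.85) and 1 of 9 osteoblast markers (-0.40). Of the other blood lists, 11 of 11 B lineage markers (median 1.14), 12 of 12 T and natural killer cell markers (1.09) and 12 of 12 erythroid markers (1.04) were higher. Neutrophil markers were higher in 9 of 12 (0.49) and megakaryocyte and platelet markers in 3 of 6 (0.02). None of these markers was called in edgeR. As background, myeloid cells are known to express Plaur and endothelial cells Plat.

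Plaur followed the monocyte and macrophage markers over the 11 libraries, with Pearson r = 0.89 (Spearman rho 0.85), 0.84 without DOX4X 1 and DOX4X 2, and 0.85 on deviations from group means. The difference of DOX4X from PBS in Plaur was 0.15 (SE 0.25) with the blood-cell marker score in the fit, against 0.67 without it, and that of DOX1X was -0.23. The score itself differed by group, with means of -0.52 in PBS, 0.36 in DOX1X and 0.25 in DOX4X (SD 0.39, 0.63 and 0.55). This fit therefore cannot fully separate the score from treatment. T and natural killer cell markers followed Plaur about as closely, with r = 0.86, and 0.82 within groups. Erythroid markers had r = 0.76 with Plaur (0.66 within groups), neutrophil 0.75 (0.80) and B lineage 0.63 (0.40). Megakaryocyte and platelet markers had 0.04. Plat and the endothelial markers had r = -0.28 over all libraries and 0.40 within groups, so the sign differed between the 2 scales. Over all libraries its closest list was the fibroblast markers, with r = 0.74 (rho 0.80), 0.58 without PBS 3 and DOX4X 1, and 0.48 within groups, where the mural markers were closest at 0.62. The fibroblast sum ran from 1570 to 2136 CPM in PBS and from 982 to 1731 in DOX4X. Yet 6 of 10 fibroblast markers were higher in DOX4X against PBS (median log2 fold change 0.04). A sum is weighted to its most abundant genes, so it does not show the direction of most of this list. Serpine2 and Serpinf1 were both closest to the osteoblast markers. For Serpine2 r was 0.79 (rho 0.75), 0.73 without PBS 1 and PBS 2, and 0.71 within groups, and for Serpinf1 0.76 (rho 0.85), 0.74 and 0.80. Plau was closest to the endothelial markers (r = 0.63, rho 0.49, 0.48 without PBS 4 and DOX1X 1), at 2 to 17 reads per library. For each gene the highest of 12 lists over all libraries is given, out of 60 correlations on log2 levels. Added to these are the endothelial and mural values of Plat and the values of Plaur with the other blood lists. The points share library depth, flow cell and treatment, so all these correlations stand as descriptions with no test. The part of these cell markers in the differences was not tested, beyond the fit with the blood-cell score.

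**Figure D4:**
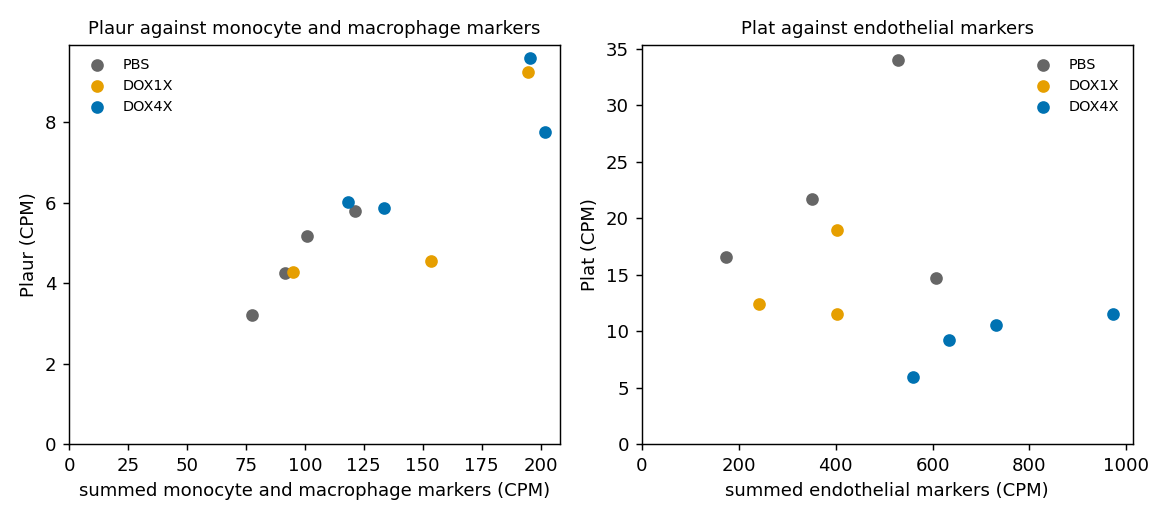
Left, Plaur (vertical axis, CPM) against summed monocyte and macrophage markers (horizontal axis, CPM), and right, Plat against summed endothelial markers, 1 point per library and coloured by group. Plaur is high in the libraries with the most marker RNA (r = 0.89), including 1 DOX1X library, while Plat and the endothelial markers have r = -0.28 over all libraries and 0.40 within groups.

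Between members, Plat and Serpine2 had the highest correlation over the 11 libraries (r = 0.79, rho 0.85), which was 0.30 on deviations from group means, so most of it lies between the groups. Plat and Plaur ran opposite (r = -0.60), again less so within groups (-0.25). Plaur and Serpine2 had opposite signs on the 2 scales, -0.40 over all libraries and 0.54 within groups. Serpine2 and Serpinf1, the 2 abundant serpins, had r = 0.41 and 0.37 within groups.

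The genes most like each member were found among about 10733 genes with a mean of at least 5 CPM, by Pearson r of log2 CPM over the 11 libraries. For Serpine2 they were P4ha3, a collagen prolyl hydroxylase subunit (r = 0.97), Qsox1, a secreted sulfhydryl oxidase (0.96), and Pkd2, a cation channel (0.95), with 0.79, 0.84 and 0.83 within groups. For Plat they were the sialyltransferase St6gal1 (0.93), Sspn of the dystrophin complex (0.93) and the endosomal GTPase Rab5b (0.92). For Plaur they were the translesion polymerase Polh (0.91), Ccdc34 (0.91) and the phosphatase Ptpn2 (0.90). For Serpinf1 they were Herpud2 (0.93), Kidins220 (0.93) and the ubiquitin ligase Ube3c (0.92), and for Plau, at its few reads, Mrps9 (0.85), Polr1h (0.84) and Pard6a (0.84). They are the top values of a long ranking and are given as descriptions.

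The other genes of the system were taken from 7 role lists and from all further serpins, 88 genes of which 86 are in the table and 68 were tested. None was called in any of the 3 comparisons by edgeR. For DOX4X against PBS, 3 were higher and 16 lower at an unadjusted p under 0.05, with a median log2 fold change of -0.02 beside 0.01 over all genes, where 1071 were higher and 1400 lower. DESeq2, which also called many more of all genes than edgeR did, called 5 of the 68, all lower: A2m, Itgav, Itgb1, Lrpap1 and Pdgfc. A2m was also called by limma-voom, in edgeR without the low-count filter and, with Pdgfc, in edgeR without PBS 4. For DOX1X against PBS the unadjusted counts were 2 higher and 7 lower, beside 610 and 668 over all genes, with 0 DESeq2 calls. For DOX4X against DOX1X they were 7 higher and 6 lower, beside 398 and 380 over all genes. There DESeq2 called Tfpi higher and A2m lower. The DESeq2 totals over all genes are given in the last section.

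**Figure D5:**
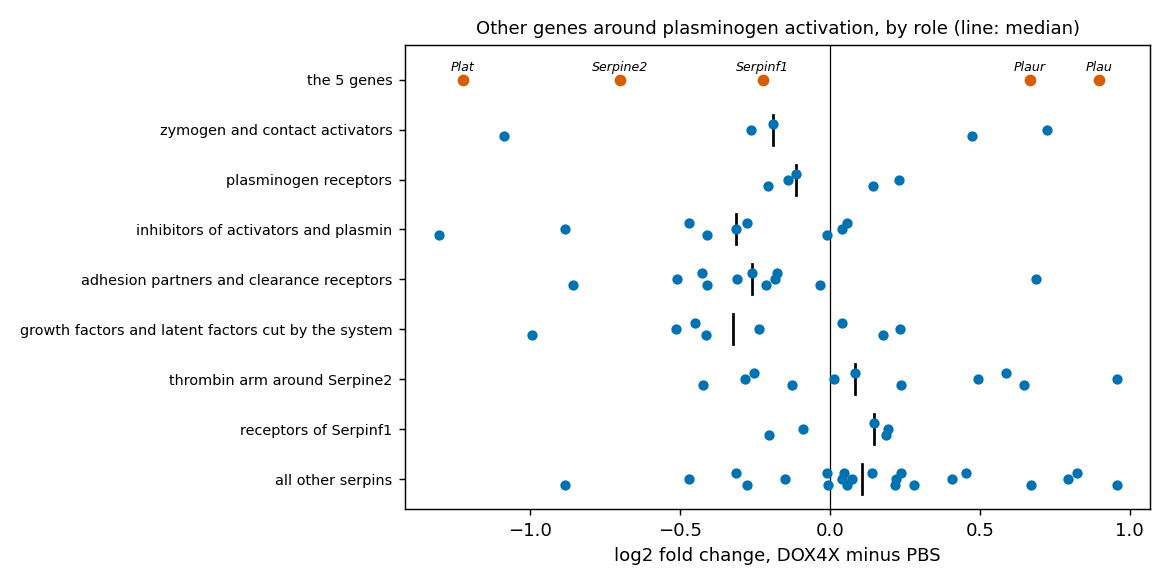
Log2 fold change, DOX4X minus PBS (horizontal axis), of the 5 genes (top row) and of the tested genes of each role list, 1 point per gene with the list median as a line. The medians run from -0.33 for growth factors to 0.15 for Serpinf1 receptors, and the inhibitor A2m at -1.31 lies farthest to the left. With flow cell as a term, which rests on DOX1X 3, the medians of the thrombin arm and of the other serpins turn below 0.

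Among the other inhibitors of activators and plasmin, 7 of 9 tested genes were lower and 2 higher after 4 doses, with a median log2 fold change of -0.31 and none called. A2m, the broad protease trap alpha-2-macroglobulin, was at 524 to 920 CPM in PBS, 610 to 645 in DOX1X and 192 to 384 in DOX4X. All DOX4X libraries lay below those of both other groups. Its log2 fold change from PBS was -1.31 (SE 0.22), with an adjusted p of 0.052 (edgeR), 0.047 without PBS 4, 1.6e-06 by DESeq2 and 0.42 with flow cell as a term, where the log2 fold change was -1.27 (SE 0.44). Serping1, the C1 inhibitor, which also blocks plasma kallikrein, was abundant at 5365 ± 445 CPM in PBS and 4424 ± 430 in DOX4X (SD, n = 4), with -0.28 (SE 0.10, edgeR adjusted p 0.27) that became -0.03 when flow cell entered the fit.

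Adhesion partners and clearance receptors, through which activator, inhibitor and receptor complexes are bound and taken up, included 10 lower and 1 higher gene of 11 tested, with a median of -0.26 and none called. With flow cell as a term, 6 were lower and 5 higher, with a median of -0.01. The integrin subunit gene Itgav was at 388 ± 51.5 CPM in PBS, 363 ± 51.4 in DOX1X and 289 ± 19.5 in DOX4X (SD, n = 4, 3 and 4), with -0.43 (SE 0.11, edgeR adjusted p 0.15). Its partner Itgb1 had -0.31 (SE 0.10), the receptor chaperone gene Lrpap1 -0.26 (SE 0.08), and Mrc2, which encodes a collagen receptor that associates with Plaur, -0.51 (SE 0.17). The fit that includes flow cell gave -0.06 for Itgav, -0.02 for Itgb1, -0.21 for Lrpap1 and 0.10 (SE 0.27) for Mrc2, whose direction thus turned. Plasminogen receptors were mixed, 2 higher and 3 lower of 5, led by Anxa2 with -0.21 (SE 0.09), and -0.05 with flow cell as a term. Zymogen and contact activators were also mixed, 2 higher and 3 lower of 5. Of the kininogen genes, Kng1 was at 882 CPM in PBS and 735 in DOX4X, and Kng2 at 737 and 646.

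Growth and latent factors cut by the system had 5 lower and 3 higher of 8 tested genes, with a median of -0.33, and -0.09 with flow cell as a term. Pdgfc, a growth factor activated by Plat, was at 14.4 ± 5.30 CPM in PBS, 7.79 ± 0.281 in DOX1X and 7.24 ± 1.59 in DOX4X (SD, n = 4, 3 and 4). Its log2 fold changes were -0.99 (SE 0.27, edgeR adjusted p 0.17) after 4 doses and -0.89 (SE 0.30, edgeR adjusted p 0.60) after 1 dose. The PBS libraries ran from 6.50 to 17.4 CPM with a median of 16.9, and overlapped both drug groups only through the lowest of them. Without PBS 4 the log2 fold changes of Pdgfc were -1.23 (SE 0.16) after 4 doses and -1.13 (SE 0.18) after 1 dose.

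The thrombin arm around Serpine2 had 7 higher and 4 lower of 11 tested genes after 4 doses, with a median of 0.08. With flow cell as a term, which rests on DOX1X 3 as described above, the balance turned, to 3 higher and 8 lower with a median of -0.31. Tfpi, the inhibitor of the tissue factor pathway, was at 257 ± 46.5, 195 ± 48.2 and 362 ± 74.8 CPM in PBS, DOX1X and DOX4X (SD, n = 4, 3 and 4), with 0.89 (SE 0.20, edgeR adjusted p 0.89) between the doxorubicin groups. Its log2 fold change of DOX4X from PBS was 0.49, and -0.08 with flow cell as a term. Thbd, thrombomodulin, which turns thrombin towards protein C, was at 345 ± 45.4, 235 ± 19.6 and 316 ± 58.1 CPM, lowest after 1 dose with -0.55 from PBS (SE 0.15, edgeR adjusted p 0.52). Both genes are known in endothelium, whose markers had a median log2 fold change of 1.22 in DOX4X against DOX1X. In DOX4X against PBS that median was 0.85, while Thbd had -0.13 (SE 0.13). The part of endothelial RNA in the levels of Tfpi and Thbd was not tested. The Serpinf1 receptors had 3 higher and 2 lower of 5 with a median of 0.15, and the other serpins 15 higher and 7 lower of 22 tested with a median of 0.11, none called. With flow cell as a term the other serpins were 9 higher and 13 lower, with a median of -0.04. Serpins in clusters of near-identical copies, such as the Serpina3 and Serpinb6 families, are uncertain as single genes.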

How the data were processed

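RNA of sorted tdTomato cells was made into cDNA with SMART-Seq v4 Plus, per the labels' protocols. The deposited values are whole-number read counts per gene with no normalization. Per the submitters' processing notes, the authors' tools included STAR 2.7.9a and featureCounts 2.0.1, with Trim Galore 0.6.6, SAMtools 1.17, MultiQC 1.7 and FastQC 0.11.5, and GRCm39. Not given in the sources used here are the annotation, the strand setting and how multi-mapped reads were handled, so overlapping and near-identical genes are uncertain.

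The counts were filtered with filterByExpr (minimum count 10), scaled by TMM and fitted over all 11 libraries and 3 groups with edgeR 4.0.16 (quasi-likelihood, R 4.3.3). P-values were adjusted over all 17838 genes with Benjamini-Hochberg at 0.05, two-sided. The edgeR fit was also run on simulated counts, which carried no flow-cell or blood-cell effect and so cannot speak to either. DESeq2 1.42.0 and limma 3.58.1 were alternatives, as were other scalings and filters, flow cell as a term, a blood-cell marker score (mean log2 CPM of erythroid, B lineage, neutrophil and monocyte or macrophage markers), a replicate block and leaving out each library. Correlations used log2 CPM with a prior count of 2. Lengths are unions of exons in GENCODE M21 and cover 97.3% of tested genes. Library totals of at least 29540422 counts make sampling error small for Serpine2 and Serpinf1. It weighs more for Plat, with 215 to 1339 reads per library, and Plaur, with 96 to 378. For Plau, with 2 to 17 reads, it is large.

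The members and lists were chosen with earlier results of these data known. The genes named with values are the 5 members, up to 3 genes of each role list with the smallest p in a comparison, genes called in a comparison, and the 3 genes most like each member, leaving out clone names and immune receptor segments. Plg is named outside this rule.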

Additional observations from a re-analysis of the deposited data

How the results depend on the processing

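The number of genes called in DOX4X against PBS, 26 in the reported edgeR fit, was 24 to 26 under other scalings and filters. It was 590 with DESeq2, 56 with limma-voom, 1 with only the 2 groups compared, 6 with flow cell as a term and 2 with the blood-cell marker covariate. Leaving out 1 library at a time gave 0 to 80 calls: 80 without PBS 4, 47 without DOX1X 3, 7 without DOX4X 4, 3 or 1 without any other PBS or DOX1X library, and 0 without DOX4X 1, 2 or 3, where edgeR had 1914, 1725 and 2352 genes at an unadjusted p under 0.05. For DOX1X against PBS, with 1 call, DESeq2 gave 49 and the fit within a flow cell 5, and leaving out 1 library gave 1 to 2. For DOX4X against DOX1X, with 1 call, DESeq2 gave 27, and leaving out 1 library gave 1 to 2. The causes were not tested, beyond the smaller number of libraries in some fits.

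With the replicate number as a replicate block, 10 genes were called in DOX4X against PBS, 6 in DOX1X against PBS and 2 in DOX4X against DOX1X, and the log2 fold change of Serpine2 after 4 doses was -0.70, no longer called. The shared numbers gave little sign of a pairing of animals. On deviations from group means, same-numbered libraries had correlations of -0.12 to 0.35, and 2 of 11 libraries correlated best with their own number. The highest value was that of DOX1X 3 and DOX4X 3, which also share a flow cell. These values cannot exclude a pairing.

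The 15 differences of the members gave 320 values over the alternatives, of which 308 had the reported sign. The other 12 belong to Plau, Plaur and Serpinf1, for example -0.15 for Plau and 0.06 for Serpinf1 in DOX4X against PBS, both with flow cell as a term, and -0.23 for Plaur in DOX1X against PBS with the blood-cell marker covariate. Plat after 4 doses passed the threshold with DESeq2 alone, and Serpine2 in DOX4X against DOX1X passed it in 1 of 22 alternatives. Depth limits Plau, which the filter of 5 CPM removed.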
